A study of Mus musculus with 4 samples.

Results

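The 35 genes described here have been reported as targets of the miR-181 family in mouse or human cells, and were taken as a fixed list out of the 55487 genes of the mouse small intestinal (SI) organoid RNA-seq tables. Each symbol was matched to the Ensembl gene identifier of the tables, with Grp78 read as Hspa5, its gene symbol. The rule uses no measured value of these libraries, although the list was drawn up with earlier results of these data known. The organoids are cultures of intestinal epithelium grown from isolated mouse crypts. Lentiviral vectors delivered a miR-181a-5p mimic (2 libraries, replicates 3 and 4) or a miRNA mimic control (2 libraries, replicates 1 and 2), and both groups were kept in puromycin at 2 ug/ml, which selects the cells that carry the virus. The mouse strain, age and sex are not given in the labels, and neither is whether replicate libraries stem from separate transductions or animals, so p-values measure only the spread between these libraries. The question addressed is how the mRNA of genes reported as miR-181 targets differed between organoids with the mimic and with the control. The level of miR-181a-5p itself was not measured in these libraries. The study assessed it by qPCR in mouse SI organoids with the mimic or its control.

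A mature miRNA is loaded into an Argonaute protein and pairs with matching sites, mostly in the 3′ untranslated region (UTR) of mRNAs, whose translation and stability it lowers. Recognition rests chiefly on the seed, which is bases 2 to 8 of the miRNA. The miR-181 family is best known from lymphocytes, where it tunes antigen receptor signalling through phosphatases such as those encoded by Ptpn11, Ptpn22, Dusp5 and Dusp6, and its reported targets also include regulators of cell survival and of RAS, TGF-β, Wnt and Notch signalling. Several of these pathways act in the intestinal crypt, where Wnt, Notch and ERK signalling maintain dividing cells.

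The mature sequences of the family are shown because all of them share the seed by which the sites below were found. The RefSeq entries for GRCm38.p6 place miR-181a-5p at chr1:137966468-137966490 and at chr2:38852741-38852763, both on the plus strand. The seed is in capitals.
miR-181a-5p: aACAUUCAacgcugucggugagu
miR-181b-5p: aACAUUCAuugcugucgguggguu
miR-181c-5p: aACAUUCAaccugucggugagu
miR-181d-5p: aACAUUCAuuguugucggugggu

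A site was counted in the longest annotated 3′ UTR of a gene, on the sense strand of the mRNA. The 7mer-m8 match was TGAATGT, the reverse complement of the seed. The same letters followed by A, TGAATGTA, made an 8mer, GAATGTA without the leading T made a 7mer-A1, and GAATGT alone a 6mer. A longer match was not counted again as a shorter one. A 7mer-m8 or an 8mer was present in 21 of the 35 genes, with 33 such sites in all, of which 14 were 8mers. The same matches were present in 18.1% of the 13037 tested genes with an annotated 3′ UTR, and an 8mer in 6.01%. The listed genes also had longer 3′ UTRs, with a median of 1940 bases against 1140 bases over those genes. A match is a run of letters in the annotated transcript, and says nothing of binding.

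Windows of 30 bases around sites of 10 listed genes are shown with the match in capitals, read 5′ to 3′ on the mRNA strand of GRCm38. The windows of Ddx3x, Tgfbr1, Nlk and Lbr belong to listed genes with sites whose mRNA was higher with the mimic by the widest margins relative to error. Those of Bcl2, Bcl2l11, Prox1 and Cbx7 belong to genes with an 8mer and overlapping groups. That of Dusp6 is the single match in its 3′ UTR, a 7mer-A1, and that of Tgfbi is from the listed gene with a 7mer-m8 and the lowest fold change. All lie in the 3′ UTR of their gene.
Ddx3x, 8mer, chrX:13293840-13293869, plus strand: aagaatgggtttaaacttgcTGAATGTAaa
Ddx3x, 7mer-m8, chrX:13293389-13293418, plus strand: agtacaaaaacactggcactTGAATGTtga
Tgfbr1, 8mer, chr4:47411173-47411202, plus strand: agtgtttccttggttcacttTGAATGTAct
Tgfbr1, 8mer, chr4:47411921-47411950, plus strand: gaaggcagatatagttaataTGAATGTAca
Nlk, 7mer-m8, chr11:78567711-78567740, minus strand: caatgtggagacttgaaactTGAATGTccc
Lbr, 7mer-m8, chr1:181816296-181816325, minus strand: tgatttttctgtacagttttTGAATGTgag
Bcl2, 8mer, chr1:106539828-106539857, minus strand: gggattataataatcaggacTGAATGTAga
Bcl2l11, 8mer, chr2:128158528-128158557, plus strand: ttttcagtaaatatttgttgTGAATGTAaa
Prox1, 8mer, chr1:190123193-190123222, minus strand: tagagattgcaacgctctttTGAATGTAtg
Prox1, 8mer, chr1:190118085-190118114, minus strand: ccttccatcttctcctaaacTGAATGTAtg
Cbx7, 8mer, chr15:79916296-79916325, minus strand: aacccctccccctgcatattTGAATGTAga
Cbx7, 8mer, chr15:79915989-79916018, minus strand: cgagctttgttcagacgaccTGAATGTAtt
Dusp6, 7mer-A1, chr10:99267422-99267451, plus strand: ttgagctggaatttattataaGAATGTAaa
Tgfbi, 7mer-m8, chr13:56638808-56638837, plus strand: cagtttgccaaagagaccatTGAATGTttt

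The libraries held 31104884 to 38111731 expected counts, the estimated read counts per gene given by RSEM. Library values below are read counts per library size, corrected by TMM factors (CPM), always in the order control replicates 1 and 2, then mimic replicates 3 and 4. Levels are compared between genes only in TPM, which accounts for transcript length. Of 10 epithelial marker genes all were detected, with a summed level of 3165 to 3729 TPM in the 4 libraries, and 1 of them, the intestinal transcription factor gene Cdx1, increased (log2 fold change 0.47, edgeR quasi-likelihood test with Benjamini-Hochberg adjustment, adjusted p = 0.0477). That call was lost without mimic replicate 3 (adjusted p = 0.211) or mimic replicate 4 (0.0740), and over all alternatives the adjusted p ranged from 0.0033 to 0.295. The keratin gene Krt18, named after its values were seen, was at 484 and 351 CPM and then at 245 and 305 CPM (-0.60, SE 0.17, unadjusted p = 0.00875, adjusted p = 0.0942), and was called lower by the exact test, the likelihood-ratio test and DESeq2. Of the 10 epithelial markers 5 had values above 0 and 5 below, with a median of -0.01. Over all tested genes 1.28% were called higher. Of 10 mesenchymal markers 4 (Col1a2, Col3a1, Dcn and Lum) were at 0 in every library, whereas 3 had enough counts to be tested and 0 were called. The 10 markers summed to 2.77 to 7.47 TPM, highest in mimic replicate 4. In organoids measured in bulk, fewer cells of a type and less RNA per cell cannot be told apart.

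Of the 35 listed genes 33 had enough counts to be tested, and 2 of them changed with the mimic. Dusp6, which encodes the cytoplasmic phosphatase that inactivates ERK, decreased, and Ptpn22, which encodes a lymphocyte phosphatase, increased from a level near 0. These 2 genes are 6.06% of those tested, against 3.57% of all 17155 tested genes at the same threshold (edgeR quasi-likelihood test, adjusted p under 0.05). By direction, 1 gene of 33 (3.03%) was higher and 1 was lower, against 1.28% and 2.29% of all genes. Both also changed by at least 2-fold, as did 0.589% of all genes upward and 1.47% downward at the same adjusted p. The median log2 fold change of the 33 genes was 0.05, with quartiles of -0.12 and 0.34, and 17 values were above 0 and 16 below. Over all tested genes the median was -0.01 and the quartiles were -0.30 and 0.20. The listed genes all code for protein, whereas 13037 (76.0%) of the tested genes had an annotated 3′ UTR. Among these, the 8403 with no seed match had a median of 0.02 and quartiles of -0.23 and 0.21. The part of gene class in the difference was not tested.

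At an unadjusted p under 0.05, 11 of the 33 genes (33.3%) had higher and 3 (9.09%) lower values with the mimic, against 11.8% and 13.0% of all tested genes. Both libraries of one group lay above both of the other in 19 genes, with the mimic libraries on top in 13 (39.4%) and underneath in 6 (18.2%). Over all genes these shares were 28.9% and 29.5%. The groups overlapped in the other 14 genes. The listed genes were also more abundant than the rest, with a median of 14.5 TPM against 8.66 TPM over all tested genes, and its part in these shares was not tested.

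**Figure D1:**
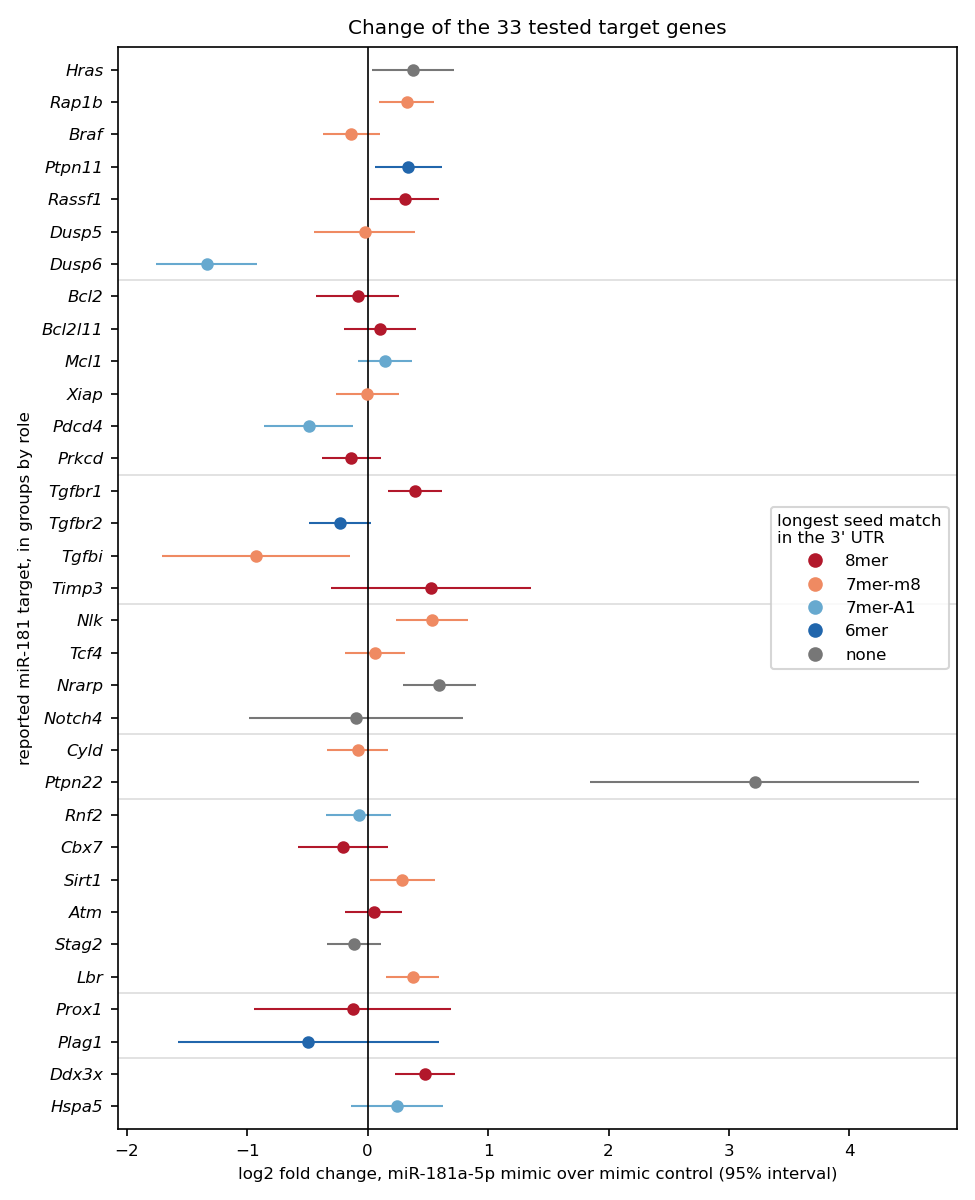
Log2 fold change of the 33 tested genes, miR-181a-5p mimic over mimic control, with 95% intervals from edgeR (2 libraries per group), in groups by role and coloured by the longest seed match in the 3′ UTR. Dusp6 (-1.33) and Ptpn22 (3.21) stand away from the rest, and most other intervals lie within 1 log2 unit of 0.

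The listed genes of RAS and ERK signalling included GTPases, a RAF kinase, the phosphatase SHP2 and phosphatases of ERK. Of these 7 genes 1 changed, the phosphatase gene Dusp6 (ENSMUSG00000019960, chr10:99263231-99267489). Dusp6 was at 29.1 and 25.6 CPM in the controls and at 9.004 and 12.6 CPM with the mimic. Both mimic libraries were below both controls by a wide margin. The log2 fold change was -1.33 (SE 0.18, 95% interval -1.76 to -0.91, adjusted p = 0.0145), a level 0.397 times that of the controls. The decrease held when any single library was left out, with values between -1.60 and -1.11. Computed from the TPM table with limma-trend, the adjusted p of Dusp6 was 0.0686 to 0.314, and over all alternatives it ranged from 1.45e-08 to 0.314.

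Dusp5, the nuclear relative of Dusp6 that also acts on ERK, was at 15.1 and 20.8 CPM in the controls and at 18.9 and 16.3 CPM with the mimic, and the groups overlapped. Its log2 fold change was -0.03 (95% interval -0.44 to 0.39). Dusp5 carries a 7mer-m8 in its 3′ UTR and another in its coding sequence. Dusp6 has a 7mer-m8 in its coding sequence too, but in its 3′ UTR only the 7mer-A1 shown above.

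Among the other listed genes of this group, 4 had higher values in both mimic libraries but did not pass the threshold. Over all tested genes 28.9% had both mimic libraries above both controls. Hras, a RAS GTPase gene, was at 21.3 and 27.3 CPM and then at 32.9 and 30.2 CPM (log2 fold change 0.38, adjusted p = 0.166). Rap1b, a GTPase gene of the RAS superfamily, was at 60.4 and 66.6 CPM and then at 80.0 and 79.0 CPM (0.32, adjusted p = 0.109). Ptpn11, which encodes the phosphatase SHP2 that carries receptor signals to RAS, was at 96.6 and 116 CPM and then at 142 and 127 CPM (0.34, adjusted p = 0.142). In these 3 genes the lower of the controls was replicate 1. Rassf1, a tumour suppressor with a RAS association domain, was at 16.7 and 16.8 CPM and then at 20.1 and 21.3 CPM (0.31, adjusted p = 0.175). Braf, the kinase gene between RAS and MEK, went the other way with 69.1 and 65.3 CPM and then 58.6 and 63.8 CPM (-0.13, adjusted p = 0.440). Its 3′ UTR of 7145 bases, the longest of the list, holds 1 7mer-m8.

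Other genes of the same pathway were taken as a list of 22 RAS, RAF and ERK genes, all tested, of which 2 decreased. Over all tested genes 2.29% decreased at the same threshold. Dusp4, a further MAPK phosphatase gene, was at 74.1 and 73.6 CPM in the controls and at 40.7 and 50.03 CPM with the mimic, a log2 fold change of -0.70 (SE 0.12, adjusted p = 0.0311). Spry1, a Sprouty gene whose product restrains receptor signalling to RAS, was at 16.1 and 11.6 CPM and then at 5.62 and 7.56 CPM, a log2 fold change of -1.07 (SE 0.22, adjusted p = 0.0470). In both genes the mimic libraries lay below both controls. The calls were less stable than that of Dusp6. Without mimic replicate 3 the adjusted p was 0.104 for Dusp4 and 0.114 for Spry1, and without control replicate 1 it was 0.0843 for Spry1. Over all alternatives it ranged from 7.59e-05 to 0.322 for Dusp4 and from 0.000961 to 0.339 for Spry1. The 22 genes had a median log2 fold change of 0.09, with 14 above 0 and 8 below.

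The other inhibitors of ERK signalling in that list did not pass the threshold. Values are given here only for the closest paralogs of listed genes. Over the 22 genes the log2 fold changes ranged from -1.07 to 1.58. Dusp7, the nearest relative of Dusp6 with Dusp9, was at 9.94 and 11.6 CPM and then at 14.6 and 13.7 CPM (0.39, adjusted p = 0.168). Dusp9 was at 1.98 and 1.71 CPM and then at 1.53 and 2.44 CPM (0.11, adjusted p = 0.854). Rap1a, the paralog of Rap1b, was at 34.1 and 36.4 CPM and then at 49.6 and 48.5 CPM (0.48, adjusted p = 0.0511). None of Dusp4, Dusp7, Dusp9 and Rap1a carries a seed match of any class in the 3′ UTR, and the longest match of Spry1 was a 6mer.

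**Figure D2:**
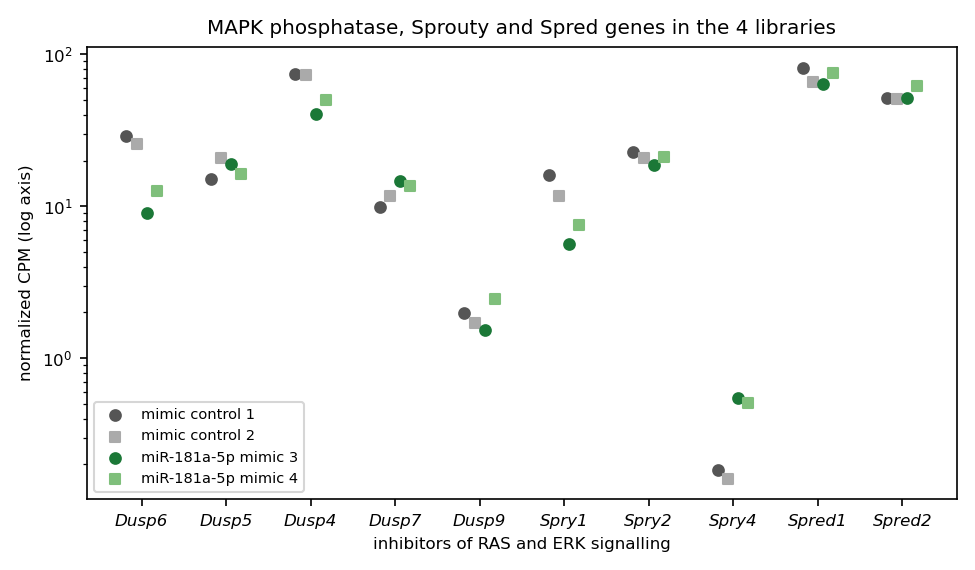
Normalized CPM (log axis) of the MAPK phosphatase, Sprouty and Spred genes in each of the 4 libraries; each point is 1 library. The mimic libraries lie below both controls for Dusp6, Dusp4 and Spry1, whereas Dusp5 (15.1 to 20.8 CPM) and Spred1 overlap, and Spry4 is below 1 CPM in all libraries.

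None of the 6 listed genes of cell survival and death passed the threshold, with 3 of them (Bcl2, Bcl2l11 and Prkcd) holding an 8mer. Bcl2, the founding survival gene of its family, was at 20.5 and 17.5 CPM in the controls and at 16.5 and 19.3 CPM with the mimic. Its log2 fold change was -0.08 (95% interval -0.42 to 0.26). Bcl2l11, which encodes the death-promoting protein BIM, was at 22.4 and 19.2 CPM and then at 22.7 and 21.995 CPM (0.10, 95% interval -0.20 to 0.40). In both genes the groups overlapped. Mcl1, a short-lived survival protein, was at 132 and 129 CPM and then at 152 and 137 CPM (0.15, adjusted p = 0.383). Xiap, an inhibitor of caspases with a pair of 7mer-m8 sites, was at 145 and 140 CPM and then at 130 and 155 CPM (95% interval -0.26 to 0.26). Prkcd, the gene of protein kinase C delta, was at 94.6 and 87.3 CPM and then at 77.9 and 87.7 CPM (-0.14, adjusted p = 0.459).

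Pdcd4, a tumour suppressor that inhibits translation initiation, was the survival gene with the lowest value. It was at 418 and 299.995 CPM in the controls and at 270.04 and 242 CPM with the mimic. The groups did not overlap, but the controls differed from each other more than the mimic libraries did. The log2 fold change was -0.49 (SE 0.16, 95% interval -0.86 to -0.12), with an unadjusted p of 0.0164 and an adjusted p of 0.121 by the edgeR quasi-likelihood test. Without control replicate 2 it was -0.70 and passed the threshold, and over all alternatives its adjusted p ranged from 0.00433 to 0.443. Pdcd4 holds a 7mer-A1 in its 3′ UTR and a 7mer-m8 in its coding sequence.

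Among 15 further genes of the BCL2 and IAP families, 1 decreased, against 2.29% of all tested genes. Pmaip1, which encodes the death-promoting protein NOXA that binds MCL1, was at 63.8 and 53.7 CPM in the controls and at 23.4 and 27.8 CPM with the mimic, a log2 fold change of -1.20 (SE 0.14, adjusted p = 0.00885). Both mimic libraries were below both controls, and the call held when any library was left out. It was lost in the 3 fits on TPM (adjusted p = 0.0754, 0.0815 and 0.314), and over all alternatives the adjusted p ranged from 1.25e-11 to 0.314. Pmaip1, whose 3′ UTR holds a 7mer-m8, is not one of the 35 listed genes. Bcl2l1, the closest relative of Bcl2 in the list, was at 53.9 and 41.1 CPM and then at 31.9 and 31.4 CPM (-0.59, adjusted p = 0.0678). The 15 genes had a median of -0.05.

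None of the 4 listed genes of TGF-β signalling and the matrix passed the threshold in either direction, although they held some of the widest differences among genes with a 7mer-m8 or 8mer. Tgfbr1, the type I receptor gene (ENSMUSG00000007613, chr4:47353222-47414931), carries both 8mers shown above. It was at 47.2 and 49.4 CPM in the controls and at 63.5 and 63.5 CPM with the mimic. Its values were close within each group, and the log2 fold change was 0.39 (SE 0.10, 95% interval 0.17 to 0.62, adjusted p = 0.0688). Tgfbr2, the type II receptor gene, was lower in both mimic libraries with 175 and 202 CPM and then 153 and 168 CPM (-0.23, adjusted p = 0.241). Tgfbi, a matrix protein gene induced by TGF-β, was at 4.96 and 2.65 CPM and then at 2.11 and 1.94 CPM (-0.93, SE 0.33, 95% interval -1.70 to -0.15, adjusted p = 0.148). Control replicate 1 stood apart from the other 3 libraries, and without control replicate 2 the value was -1.29 and passed the threshold (adjusted p = 0.0162, with a range of 0.0162 to 0.572 over all alternatives).

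Timp3, an inhibitor of matrix proteases with an 8mer and a 7mer-m8, was at 8.71 and 3.55 CPM and then at 9.29 and 8.54 CPM. Only control replicate 2 was low, and the groups overlapped (0.52, SE 0.36, adjusted p = 0.398). Without control replicate 1 the value was 1.32 and passed the threshold (adjusted p = 0.0147), and without control replicate 2 it was 0.04 (adjusted p = 0.924). Timp3 overlaps Syn3 on the other strand, and reads of overlapping genes may not be told apart, since the use of strand is not given in the sources used here. Of 12 further TGF-β genes 9 were tested and none passed the edgeR quasi-likelihood test, the exact test or DESeq2. At an unadjusted p under 0.05, 0 were higher and 2 lower, against 11.8% and 13.0% of all tested genes.

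Of the listed genes of Wnt and Notch signalling, Nrarp and Nlk had the highest values of the list after Ptpn22 and did not pass the threshold. Nrarp, a target of Notch signalling whose product damps it (ENSMUSG00000078202, chr2:25180758-25183339), was at 21.3 and 25.9 CPM in the controls and at 36.0 and 35.3 CPM with the mimic. The log2 fold change was 0.60 (SE 0.13, 95% interval 0.30 to 0.90, adjusted p = 0.0525). Nlk, a kinase gene whose product phosphorylates TCF/LEF factors (ENSMUSG00000017376, chr11:78567168-78697373), was at 21.3 and 25.3 CPM and then at 34.9 and 32.7 CPM, a log2 fold change of 0.54 (SE 0.13, 95% interval 0.24 to 0.83, adjusted p = 0.0646). In both genes both mimic libraries were higher than both controls. The 3′ UTR of Nrarp has no seed match of any class, and that of Nlk has the 7mer-m8 shown above.

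Tcf4 in these tables is the gene of the basic helix-loop-helix factor E2-2, whereas TCF4 is also an older name of the Wnt effector gene Tcf7l2. Tcf4 was at 34.7 and 32.2 CPM and then at 35.4 and 34.5 CPM (0.06, 95% interval -0.19 to 0.31). Tcf7l2 was at 125 and 151 CPM and then at 114 and 122 CPM (-0.23, adjusted p = 0.269). Neither gene passed the threshold. Notch4, a receptor gene best known from endothelium, was at 2.45 and 1.58 CPM and then at 1.28 and 2.50 CPM (-0.10, 95% interval -0.98 to 0.79), so its interval was wide. Of 6 endothelial markers 3 were at 0 in every library, and the sum of all was 7.30 and 7.16 TPM, then 4.29 and 7.61 TPM, lowest in mimic replicate 3 like Notch4. Its part in the values of Notch4 was not tested. Wif1, a secreted Wnt inhibitor gene, was not tested, with 9 and 4 counts for the controls and 0 in both mimic libraries.

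Of 14 further Wnt genes 10 were tested, and of 10 further Notch genes all were. None of either list passed the edgeR quasi-likelihood test. At an unadjusted p under 0.05, 3 Wnt genes were higher and 1 lower, and 2 Notch genes were higher and 1 lower. Over all tested genes 11.8% were higher and 13.0% lower at that p. The exact test called 1 Wnt gene higher, 1 lower and 1 Notch gene lower, and DESeq2 called 1 Wnt gene higher. Of all genes with an adjusted p, the exact test called 4.44% higher and 5.99% lower, and DESeq2 4.58% higher. The medians were 0.14 and 0.08.

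Ptpn22 (ENSMUSG00000027843, chr3:103859795-103912247), known for damping antigen receptor signalling in lymphocytes, had the highest fold change of the list. Control replicates 1 and 2 had 3 and 9 counts of it, against 67 and 42 with the mimic, or 0.0782 and 0.290 CPM against 2.14 and 1.18 CPM. Both mimic libraries were above both controls, yet the level was low throughout, at 0.07 and 0.16 TPM and then 1.29 and 0.65 TPM. The log2 fold change was 3.21 (SE 0.58, 95% interval 1.85 to 4.58, adjusted p = 0.0353). From the summed counts of 12 and 109, the ratio per total count was 9.54, with an exact 95% interval of 5.25 to 19.0 that covers counting error only. Without control replicate 1 the log2 fold change was 2.48 and did not pass (adjusted p = 0.0709), and without a filter on low counts the adjusted p was 0.0778. Over all alternatives it ranged from 7.57e-06 to 0.319. The 3′ UTR of Ptpn22, at 207 bases the shortest of the list, has no seed match.

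Markers of leukocytes, in which Ptpn22 is known to be expressed, were near 0. Of 8 leukocyte markers 3 could be tested and none passed, and none was called by the exact test or DESeq2. At an unadjusted p under 0.05, 1 marker was higher, against 11.8% of all tested genes. Their summed level was 2.70 and 3.15 TPM for the controls, and 3.0 and 3.59 TPM for the mimic libraries. Ptprc, which encodes the pan-leukocyte antigen CD45, had counts of 4, 1, 2 and 5. Itgam had 1.43 and 2.42 CPM and then 3.29 and 4.30 CPM (log2 fold change 1.001, adjusted p = 0.111). The gene before Ptpn22 on the same strand, Bcl2l15, ends 5176 bases upstream of it and was also higher, with counts of 23 and 108 and then 483 and 430 (2.80, SE 0.56, adjusted p = 0.0448). Bcl2l15 was named after its values were seen. Of the other tested genes near Ptpn22 none passed, with log2 fold changes from -0.24 (Gm43149) to 1.11 (Olfml3). Rsbn1, the next gene downstream on the same strand, was at 0.09. Cyld, the deubiquitinase gene that restrains NF-κB, was at 49.0 and 43.7 CPM and then at 45.0 and 42.7 CPM (-0.08, adjusted p = 0.678).

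None of the 6 listed genes of chromatin, DNA repair and the nucleus passed the threshold. Lbr, which encodes the lamin B receptor of the inner nuclear membrane (ENSMUSG00000004880, chr1:181815335-181843046), was at 206 and 218 CPM in the controls and at 280.3 and 269.6 CPM with the mimic. Both mimic libraries were above both controls, with a log2 fold change of 0.37 (SE 0.09, 95% interval 0.16 to 0.59, adjusted p = 0.0729). Sirt1, a NAD-dependent deacetylase gene, was at 32.0 and 33.5 CPM and then at 42.8 and 37.2 CPM (0.29, adjusted p = 0.177). Atm, the DNA damage kinase gene, was at 64.5 and 62.3 CPM and then at 69.1 and 62.4 CPM (0.05, 95% interval -0.18 to 0.29). Its 3′ UTR of 597 bases holds an 8mer.

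Rnf2 and Cbx7 encode a catalytic and a chromodomain subunit of Polycomb repressive complex 1. Rnf2 was at 42.3 and 37.1 CPM and then at 36.1 and 39.4 CPM (-0.07, adjusted p = 0.731). Cbx7, with the pair of 8mers shown above, was at 55.5 and 39.7 CPM and then at 42.5 and 40.4 CPM (-0.20, 95% interval -0.57 to 0.17). For Cbx7 control replicate 1 alone was high. Rnf2, Cbx7, Lbr and Braf each overlap a protein-coding gene on the other strand (Trmt1l, Apobec3, Dnah14 and Ndufb2), so their values carry the same limit as those of Timp3. Among 17 further genes of the complex 1 increased, against 1.28% of all tested genes. Bmi1, the partner of RNF2 in the complex, was at 34.3 and 35.8 CPM and then at 65.8 and 59.9 CPM, a log2 fold change of 0.84 (SE 0.10, adjusted p = 0.0110) that passed when any library was left out. The call was lost in the 3 fits on TPM (adjusted p = 0.0933, 0.104 and 0.306), and the adjusted p of Bmi1 ranged from 2.37e-08 to 0.306 over all alternatives. The list had a median of -0.06, with 8 genes above 0 and 9 below.

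Stag2, a cohesin subunit gene with a 7mer-m8 in its coding sequence and none in its 3′ UTR, was at 251 and 231 CPM and then at 221 and 224 CPM (-0.11, adjusted p = 0.496). Its paralog Stag1 was at 102 and 106 CPM and then at 127 and 116 CPM (0.22, adjusted p = 0.208). Of 8 further cohesin genes none passed at an adjusted or unadjusted p under 0.05 in the edgeR quasi-likelihood test, and the exact test and DESeq2 called none. Their median log2 fold change was 0.11.

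The 3 listed transcription factor genes Prox1, Plag1 and Zeb2 were low in these organoids. Prox1, known in enteroendocrine and lymphatic endothelial cells, has 2 8mers and 2 7mer-m8 sites in a 3′ UTR of 5185 bases, the most sites of the list together with Ddx3x. Prox1 was at 3.86 and 1.84 CPM in the controls and at 2.55 and 2.75 CPM with the mimic. Both mimic libraries lay between the controls, and the log2 fold change was -0.12 with a wide 95% interval of -0.94 to 0.70. The summed level of 10 enteroendocrine markers was likewise highest in control replicate 1 (400 TPM) and lowest in control replicate 2 (256 TPM), with 330 and 336 TPM in the mimic libraries, and its part in the values of Prox1 was not tested. None of these markers passed, 1 was higher at an unadjusted p under 0.05, and the exact test and DESeq2 each called 1 higher. Over all genes these shares were 11.8%, 4.44% and 4.58%. Plag1, a zinc finger factor gene, was at 1.85 and 1.19 CPM and then at 0.575 and 1.57 CPM (-0.49, adjusted p = 0.545). Zeb2, a mesenchymal repressor of epithelial genes, had 1 count in all 4 libraries together and was not tested.

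Ddx3x and Hspa5 were highly expressed, and together with Pdcd4 they were the 3 listed genes above 100 TPM in every library. Ddx3x, an RNA helicase gene on the X chromosome (ENSMUSG00000000787, chrX:13280970-13294052), carries an 8mer and 3 7mer-m8 sites in a 3′ UTR of 2560 bases. It was at 421 and 471 CPM in the controls and at 629 and 615 CPM with the mimic. Both mimic libraries were above both controls, with a log2 fold change of 0.48 (SE 0.11, 95% interval 0.23 to 0.73, adjusted p = 0.0552). Hspa5, the endoplasmic reticulum chaperone gene also called Grp78, was at 395 and 563 CPM and then at 564 and 571 CPM (0.25, adjusted p = 0.387). Here control replicate 1 was low and the other 3 libraries were alike.

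**Figure D3:**
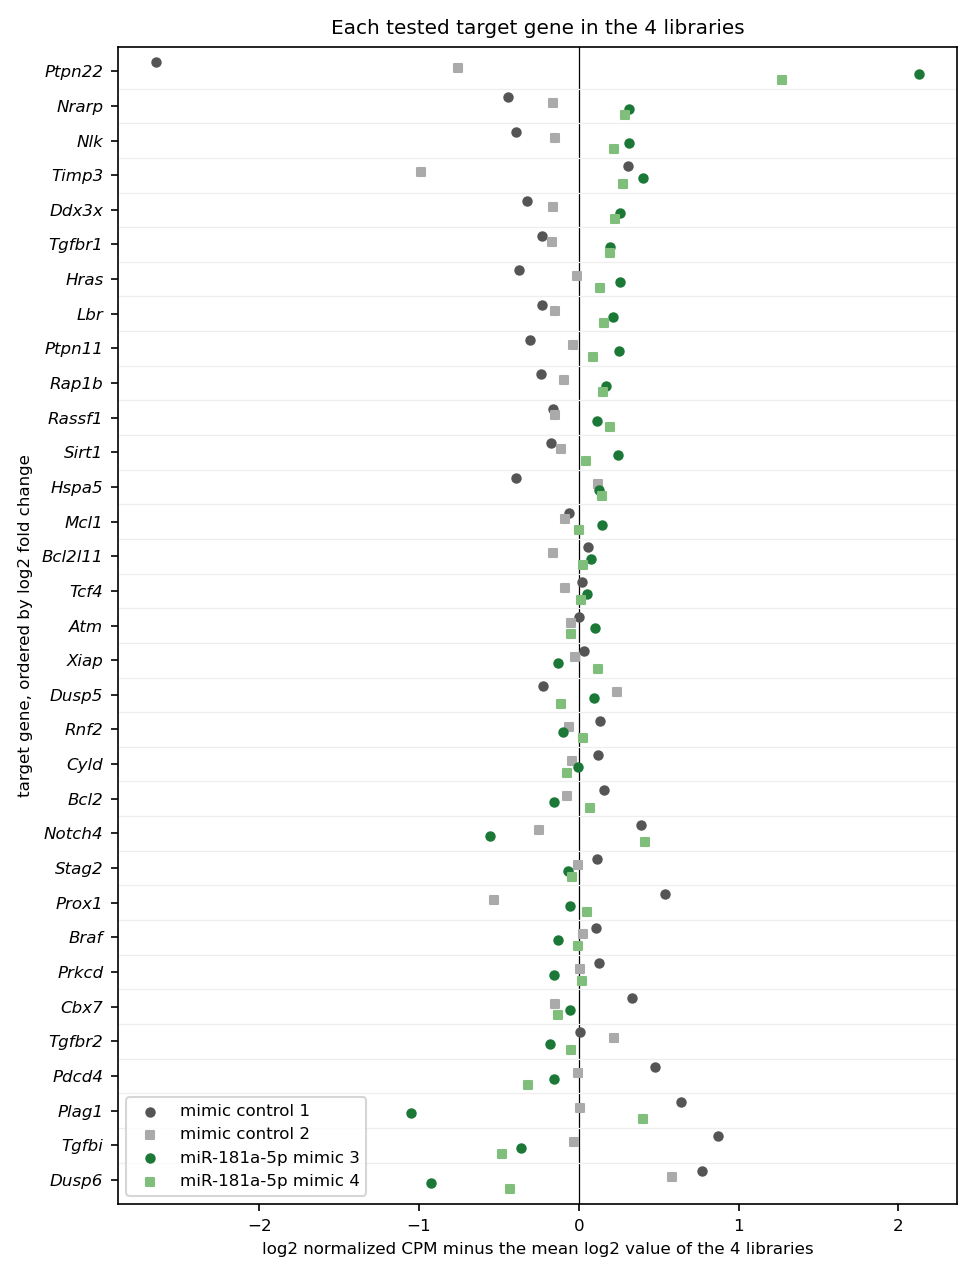
Each of the 33 tested genes in the 4 libraries, as log2 normalized CPM minus the mean log2 value of that gene, ordered by log2 fold change; each point is 1 library. For Dusp6 at the bottom and for Nrarp, Nlk, Ddx3x and Tgfbr1 the groups are apart, whereas for Timp3, Prox1 and Notch4 they overlap.

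Nrarp, Ddx3x, Nlk, Tgfbr1 and Lbr, with adjusted p between 0.0525 and 0.0729, were the 5 listed genes just over the threshold, and all 5 were higher with the mimic. Of these 4 hold a 7mer-m8 or 8mer, as do 20 of the 33 tested listed genes. The range was set by the values of the 5 genes themselves. The share of all tested genes within it was not counted, so these numbers do not set the listed genes apart. The edgeR exact and likelihood-ratio tests and DESeq2, run as alternatives, each called these 5 genes higher, which with Ptpn22 gave 6 listed genes higher and 1 lower. Of all genes with an adjusted p, the exact test called 4.44% higher and 5.99% lower, the likelihood-ratio test 4.62% and 6.25%, and DESeq2 4.58% and 4.63%. The result also rested on single controls. Without control replicate 2 the log2 fold change was 0.67 for Nlk, 0.43 for Tgfbr1, -1.42 for Dusp6 and -1.29 for Tgfbi. Without control replicate 1 it was 0.41, 0.36, -1.24 and -0.40 in the same order. The 5 genes were each called without control replicate 2, and none of them without control replicate 1, where their adjusted p lay between 0.0908 and 0.162.

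By seed match, 20 of the tested genes had a 7mer-m8 or 8mer in the 3′ UTR, and their median log2 fold change was 0.06, with 11 above 0 and 9 below. The median was -0.07 over the 13 tested genes without one. Over all tested genes with an annotated 3′ UTR the medians were 0.03 with such a match (2362 genes) and 0.02 without (10675 genes). None of the 20 genes passed the edgeR quasi-likelihood test at an adjusted p under 0.05. At an unadjusted p under 0.05, 7 were higher and 1, Tgfbi, was lower, and the exact test, the likelihood-ratio test and DESeq2 each called 4 higher and 0 lower. Over all 2362 genes with such a match, 15.7% were higher and 12.8% lower at an unadjusted p under 0.05. The exact test called 6.48% of them higher and 6.39% lower, the likelihood-ratio test 6.82% and 6.56%, and DESeq2, over the 2180 with an adjusted p, 6.7% and 5.37%. The groups were apart with higher mimic values in 7 of the 20 and with lower ones in 2, and overlapped in 11. Over all genes with such a match, the groups were apart and higher in 35.3% and lower in 25.2%.

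The 10 tested genes whose longest match was an 8mer had log2 fold changes from -0.20 (Cbx7) to 0.52 (Timp3), with a median of 0.08 against 0.03 over 783 genes with an 8mer. Those 10 with a 7mer-m8 ranged from -0.93 (Tgfbi) to 0.54 (Nlk), with a median of 0.03 against 0.02 over 1579 genes. The 5 with a 7mer-A1, among them Dusp6 and Pdcd4, had a median of -0.07, and the 3 with a 6mer one of -0.23. Hras, Ptpn22, Notch4, Nrarp and Stag2, the 5 tested genes with no match of any class, had a median of 0.38. The 8 tested listed genes with 2 or more 7mer-m8 or 8mer sites had a median of 0.32, with 5 above 0 and 3 below. Over the 494 such genes among all tested the median was 0.01, with 252 above 0 and 242 below. The part of site number was not tested.

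A 7mer-m8 or 8mer in the coding sequence was present in 9 listed genes, of which 8 were tested. Their median was -0.12, with 1 value above 0 and 7 below, against 0.15 over the 25 tested genes without either of these. The 8 genes were Dusp5, Dusp6, Prkcd, Notch4, Braf, Pdcd4, Stag2 and Hspa5, of which only Hspa5 was above 0, and Dusp6 was the 1 that passed the threshold. This split was made beside that by 3′ UTR, and no test was run on it. Over all tested genes with an annotated 3′ UTR, the median was -0.02 with such a coding match, with 773 above 0 and 885 below. Without one it was 0.03, with 6202 above 0 and 5177 below.

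**Figure D4:**
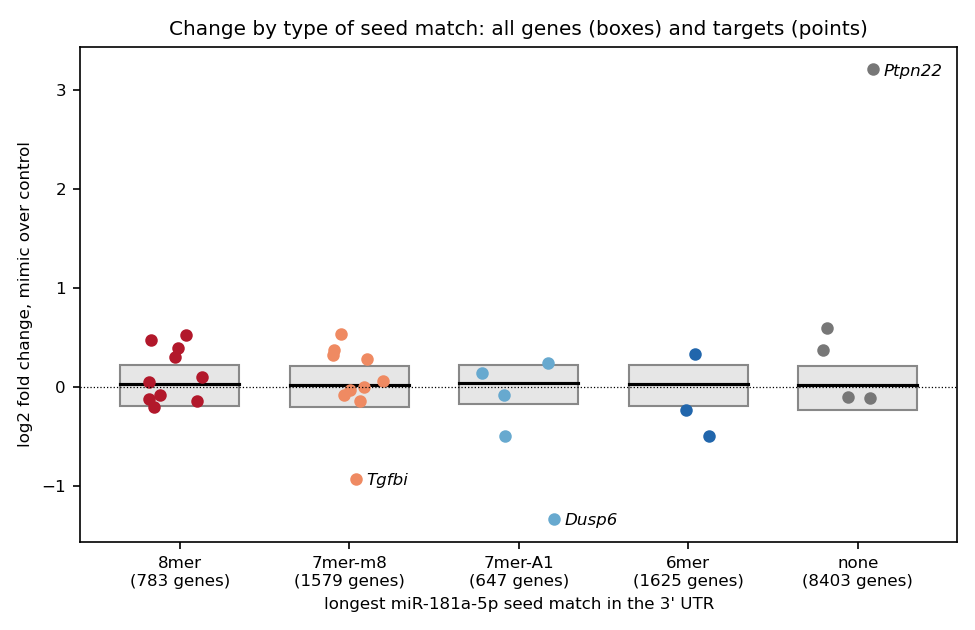
Log2 fold change, mimic over control, by the longest seed match in the 3′ UTR. Points are the 33 tested genes, boxes span the quartiles of all tested genes of that class and the line is their median. The genes with an 8mer lie between -0.20 and 0.52, and Dusp6 and Ptpn22 belong to the 7mer-A1 class and to the class with no match.

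The 95% interval of each gene gives how low its log2 fold change could lie. The 95% interval lay above a log2 fold change of -1, a fall to 0.5 times the control level, in 19 of the 20 tested genes with a 7mer-m8 or 8mer, the exception being Tgfbi. It lay above -0.5 in 17 of the 20. Over all 33 tested genes, 30 had intervals above -1. The same counts were not taken over all genes, so they do not set the listed genes apart. They do not speak to smaller decreases. These intervals rest on 2 libraries per group and on the spread that edgeR shares across genes, and they concern mRNA, since protein was not measured in these libraries.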

How the data were processed

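The 35 listed genes, the partner lists and the comparisons were chosen with earlier results of these data known. The labels state poly(A) selection and the study's supplemental methods ribosomal RNA depletion. The authors trimmed reads with Trimmomatic, mapped them to GRCm38 with RSEM, and deposited expected counts per gene without normalization and TPM, scaled by the authors to a common total. The annotation release is not given in the sources used here. Columns that matched no sample (3 per table) were not used.

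Rounded expected counts were analysed in R 4.3.3 with edgeR 4.0.16 (filterByExpr, TMM, estimateDisp, glmQLFit with legacy = FALSE, glmQLFTest), with Benjamini-Hochberg adjustment over 17155 genes, and called at an adjusted p under 0.05. An SE is the log2 fold change over the root of the F statistic. The steps were tested on simulated counts. Alternatives were the edgeR exact and likelihood-ratio tests, DESeq2 1.42.0, other scalings and filters, limma-trend (limma 3.58.1) on log2(TPM + 1) and log2(TPM + 0.1), each library left out in turn, and, chosen after seeing the data, the legacy form of the quasi-likelihood test. Fold changes after a pseudocount understate those of low genes.

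Seed matches were read from GENCODE M21 transcripts (GRCm38), in the longest 3′ UTR and longest coding sequence of a gene, and miRNA sequences from RefSeq. Every listed gene is accounted for, and partner genes are named where they passed the threshold or are the closest paralog of a listed gene. Partner lists were RAS, RAF and ERK, BCL2 and IAP, TGF-β, Wnt, Notch, Polycomb repressive complex 1 and cohesin genes, 98 in all, of which 91 were tested. The result of 1 partner gene is not reported here. Between replicates, counts pooled over genes differed by more than sampling noise (chi-square per degree of freedom 30.4 in the controls and 16.5 with the mimic). Abundant genes weigh most in that value. For genes with few counts, such as Ptpn22, counting error also limits precision. For 2 against 2 libraries the smallest p of an exact permutation test is 0.333.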

Additional observations from a re-analysis of the deposited data

How the results depend on the processing

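Of the 33 tested listed genes, 22 kept the sign of their log2 fold change under every alternative that gave them a value, which was all 16 for 21 genes and 13 for Ptpn22, and 11 changed it under some, none of them past the threshold there. The median log2 fold change of the listed genes stayed between 0.00 and 0.11, and when each library was left out in turn between 0.01 and 0.11. The median over all genes moved by less than 0.1 under every scaling. Calls depended on the test and the filter. Of all genes 220 were higher and 392 lower as reported. The exact test called 761 higher and 1027 lower, the likelihood-ratio test 792 and 1072, and DESeq2 646 and 653. No filter on low counts gave 67 and 125, log2(TPM + 1) 32 and 43, log2(TPM + 0.1) 11 and 16, and log2(TPM + 1) without a filter 2 and 0. Leaving out each library gave 159 to 1152 higher and 214 to 1213 lower, with the highest numbers without control replicate 2. Of the listed genes 1 was higher and 1 lower as reported. The exact test, the likelihood-ratio test and DESeq2 each called 6 higher, and library totals 3. No filter and at least 10 counts in every library called 0 higher, the latter because Ptpn22 was then not tested, and the 3 fits on TPM called 0 higher and 0 lower. Leaving out each library gave 1 to 10 higher and 1 to 3 lower. Of the partner genes 2 were higher and 3 lower as reported. The exact test called 6 and 7, the likelihood-ratio test 7 and 7, and DESeq2 6 higher. RLE factors, upper-quartile factors and at least 10 counts each called 1 higher, no filter 1 higher and 1 lower, and the 3 fits on TPM 0 and 0. Leaving out each library gave 1 to 8 higher and 1 to 8 lower. The median of listed genes by seed match was 0.06 in the 3′ UTR and -0.12 for matches in the coding sequence, with 3 genes in both sets. The cause of the other shifts was not tested. Where a library was left out, the lone library of its group was assumed to vary like the other group. At an unadjusted p under 0.05 the 3 fits on TPM gave 11, 11 and 12 listed genes. No paired analysis was possible because the groups share no replicate number.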
